A study of Mus musculus with 4 samples.

Results

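The genes described here are 41 interferon-stimulated genes, a list of transcripts that cells switch on when type I or type II interferon binds its receptor. Every listed gene with a row in both deposited matrices was taken. This left 40 of the 41 genes, among 22631 gene rows in all, and Mx1 was not analysed here. The rule names genes known to be interferon-stimulated and uses no value of these cells, though it was set with earlier results of these data known.

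The study profiled single migratory dendritic cells (DCs) from the lymph nodes that drain the mouse ear, with 3′ single-cell RNA sequencing. All mice were heterozygous Tnfsf4 KI/+ reporters, in which a blue fluorescent protein (BFP) reports the locus of Tnfsf4, the gene for the T cell costimulatory ligand OX40L. Ears were either left untreated or painted on days 0, 2 and 4 with MC903 (calcipotriol), a vitamin D analogue used to induce an atopic-dermatitis-like skin inflammation, and the nodes were collected on day 5. For both treatments 5000 BFP+ and 7000 BFP− DCs (B220−, CD11c intermediate, MHCII high) were sorted, tagged with an antibody hashtag (1 and 2 for untreated, 3 and 4 for MC903) and pooled into a single capture. There were thus 4 populations, untreated BFP+, untreated BFP−, MC903 BFP+ and MC903 BFP−, each a single pool of unstated mouse number. The reporter allele was carried in every group, controls included, and BFP reads the activity of the locus rather than the OX40L protein.

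Interferons bind receptors that activate kinases of the JAK family, which pass the signal to transcription factors. Type I interferon acts through interferon-stimulated response elements (ISREs) in promoters, while gamma-activated sites (GAS) carry the signal of interferon gamma. The genes so induced include RNA-directed antiviral effectors, sensors of viral nucleic acid, proteins that block virus entry or release, and regulators that feed the response forward or end it. DCs are both sources of interferon and responders to it, and interferon shapes their maturation and cross-presentation.

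The promoters of several members hold the sequence through which this pathway acts, and they are shown because the levels described later differ among genes with similar elements. Promoters of 300 bases (250 before and 50 after the start site) were read from RefSeq (GRCm38.p6) for 33 of the 40 genes. Each window is 60 bases, printed 5′ to 3′ along the gene's own strand, with matches to an ISRE core in capitals. The core was searched as GAAA, any 2 bases, GAAA on both strands, so TTTC, 2 bases, TTTC is the match on the opposite strand, and overlapping matches were joined.
Isg15 (chr4:156200856-156200915, minus strand): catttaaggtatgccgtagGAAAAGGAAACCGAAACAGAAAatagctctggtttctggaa
Ifit1 (chr19:34640769-34640828, plus strand): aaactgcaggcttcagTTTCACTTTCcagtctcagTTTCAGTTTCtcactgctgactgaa
Ifit3 (chr19:34583365-34583424, plus strand): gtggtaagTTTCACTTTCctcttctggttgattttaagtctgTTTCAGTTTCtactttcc
Bst2 (chr8:71537565-71537624, minus strand): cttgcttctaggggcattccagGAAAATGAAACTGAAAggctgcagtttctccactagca
Gbp2 (chr3:142620579-142620638, plus strand): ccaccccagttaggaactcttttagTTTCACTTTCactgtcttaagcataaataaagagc
Ifitm2 (chr7:140955973-140956032, minus strand): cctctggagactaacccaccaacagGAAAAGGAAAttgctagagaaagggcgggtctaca

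Isg15 had 3 overlapping matches, starting at −78, −72 and −66 from the start site, whereas Gbp2 and Ifitm2 had a single match each, at −59 and −46. Ifit1 and Ifit3 each had a pair of separate matches on the opposite strand. At least 1 match was found for 19 of the 33 genes (57.6%), against 1079 of 27025 genes in the whole promoter table (3.99%). With a C required after the second GAAA, 14 of the 33 genes (42.4%) matched, against 0.944% of all genes. The GAS letters TTCNNNGAA, which read the same on both strands, were found for 10 of the 33 (30.3%) and for 9.55% of all genes. The windows of Ifitm1, Irf7, Samhd1 and Ifi35 held no ISRE match, which says only that these letters are absent from 300 bases. These matches describe sequence, and binding was not measured.

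Requiring 500 or more genes and no more than 10% of UMIs (unique molecular identifiers, counted molecules) from mitochondria left 8422 untreated and 5636 MC903 barcodes. A marker gate of at least 2 of 8 DC genes and fewer than 2 B cell and fewer than 2 T cell genes held 5400 untreated and 4513 MC903 DCs, with median depths of 2622 and 9731 UMIs. Another 2586 untreated (30.7%) and 770 MC903 (13.7%) barcodes had DC and lymphocyte genes together and were left out. Hashtags placed 400 DCs in the untreated BFP+ population, 3721 in untreated BFP−, 1375 in MC903 BFP+ and 3027 in MC903 BFP−, with 1279 untreated and 111 MC903 DCs mixed between hashtags. Tnfsf4 checked the sort, at 28.2 CPM (UMIs per 1000000 of the summed DCs) in untreated BFP+ against 4.24 in BFP− DCs, and at 32.6 against 4.60 in the MC903 capture. The captures differed in treatment, library, lane and depth together, so an effect of MC903 and of the capture cannot be told apart. With 1 pool per population no test between conditions was possible, and the 95% intervals below are exact Poisson intervals that cover counting error only.

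Of the 40 genes, 20 reached 20 CPM in at least 1 of the 4 populations and were called readable, and the other 20 were too low to read. All levels are CPM of summed 3′ UMIs, which count 1 end per molecule and were not divided by transcript length. The readable set held all 3 genes of the ISG15 system but only 1 of 9 RNA-directed effectors, 2 of 5 nucleic acid sensors, 5 of 7 nuclear and signalling proteins, 5 of 7 membrane and secreted proteins, 1 of 4 GTPases and 3 of 5 others. Of the RNA-directed effectors and antiviral enzymes, Ifit1, Ifit2, Ifit3, Rsad2, Oas1a, Cmpk2, Isg20 and Eif2ak2, the kinase PKR, stayed below the limit in every population. The other genes too low to read were Xaf1, Ddx58, Irgm1, Ifi211, Lgals3bp, Irf7, Igtp, Phf11d, Dhx58, Gbp7, Rtp4 and Ifi44. Their highest population levels ran from 0.761 CPM for Ifi44 to 18.1 CPM for Eif2ak2, and 5 of the 20 reached 20 CPM in a DC type. Untreated BFP+ DCs held no UMI of Ifit2, Ifit3 or Isg20, for which the limit used for a count of 0 in this population, 3 counts, is 1.14 CPM.

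The highest of the readable genes was Samhd1, a dNTP hydrolase that restricts retroviruses, at 397 CPM in untreated BFP+, 421 in untreated BFP−, 499 in MC903 BFP+ and 547 in MC903 BFP− DCs. Ifitm2, a membrane protein that blocks virus fusion, stood at 212, 217, 236 and 233 CPM in the same order. Bst2 (tetherin), which holds budding virions at the cell surface, was at 177, 185, 170 and 163 CPM. These 3 abundant genes were nearly level across the 4 populations, as was the guanylate-binding GTPase Gbp2 at 127, 142, 131 and 147 CPM. Isg15, a ubiquitin-like protein that is conjugated to newly made proteins, was at 24.4, 48.2, 84.1 and 98.4 CPM. Ifitm1, a close relative of Ifitm2, was at 7.99, 7.50, 43.6 and 50.2 CPM. Both were low in the untreated capture and high in the MC903 capture, and no other readable gene spanned a wider range. Across the 4 populations the highest and lowest values of 15 of the 20 readable genes were within 1.5-fold, and those of 17 were within 2-fold. Beyond Isg15 and Ifitm1, only Ifi35 exceeded that, at 41.9, 59.1, 84.7 and 82.4 CPM.

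**Figure D1:**
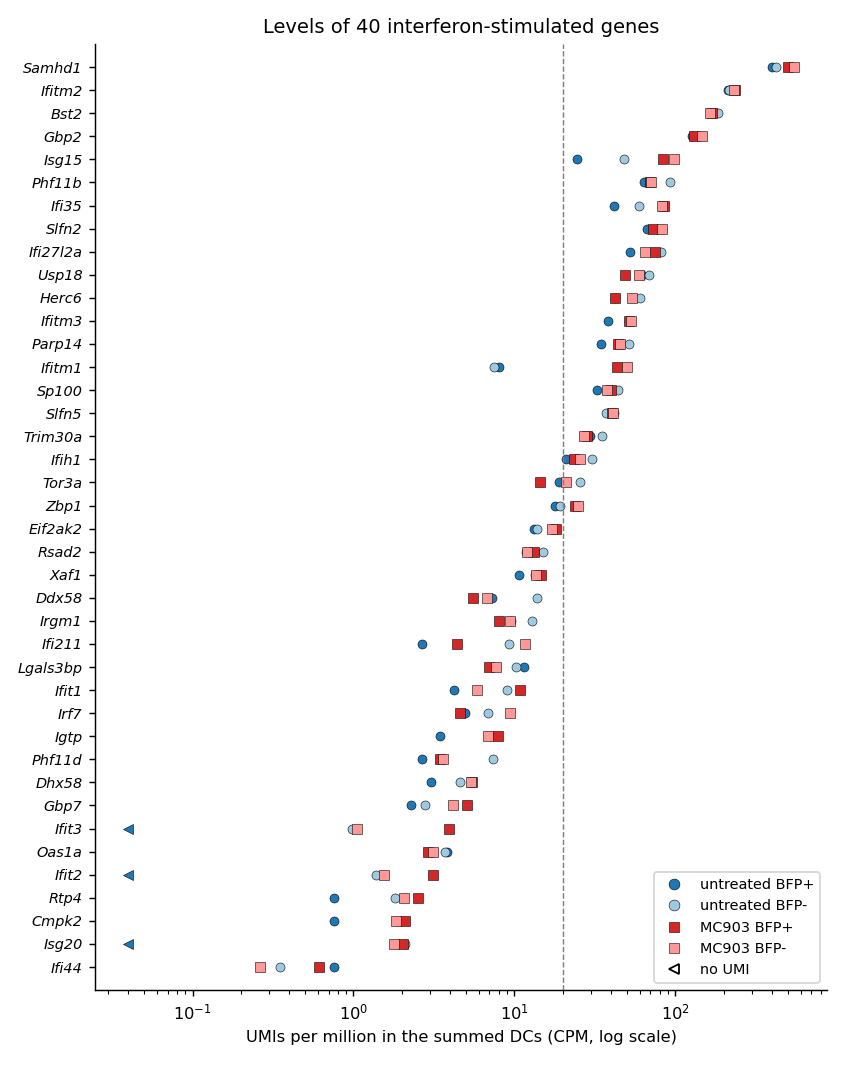
Level of each of the 40 interferon-stimulated genes (CPM, log axis) in the 4 hashtag populations, 1 point per population, with triangles for no UMI and a dashed line at 20 CPM. Samhd1 lies between 397 and 547 CPM, whereas Isg15 spreads from 24.4 to 98.4 and Ifitm1 from 7.50 to 50.2, and 20 genes lie left of the line in every population.

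The remaining readable genes lay between 14.5 CPM (Tor3a in MC903 BFP+ DCs) and 93.0 CPM (Phf11b in untreated BFP− DCs). Usp18, the protease that removes ISG15 and dampens the type I receptor, was at 62.0, 68.5, 48.6 and 59.8 CPM in untreated BFP+, untreated BFP−, MC903 BFP+ and MC903 BFP− DCs. Herc6, the mouse ligase for ISG15, was at 42.2, 60.7, 42.2 and 54.2 CPM. In neither partner of Isg15 was the MC903 capture the higher one. Of the sensors, Ifih1 (MDA5), which binds long double-stranded RNA, was at 20.9, 30.6, 23.4 and 25.7 CPM, and Zbp1, a sensor of Z-form nucleic acid, at 17.9, 19.2, 23.8 and 24.9 CPM. Ifitm3, the endosomal relative of Ifitm2, was at 38.1, 51.4, 51.3 and 53.0 CPM, lowest in untreated BFP+ DCs. In that population 36 of its 100 UMIs lay in 1 cell, a dependence that the counting intervals of its ratios below do not cover. Ifi27l2a, a small membrane protein, was at 52.1, 81.6, 75.1 and 64.8 CPM. B-like and T-like barcodes carried far more of it, 549 and 945 CPM untreated and 436 and 798 CPM in the MC903 capture. The B cell list summed to 43.8 and 86.7 CPM in untreated BFP+ and BFP− DCs and to 28.0 and 28.5 CPM in the MC903 ones, and the part of free lymphocyte RNA in the Ifi27l2a levels was not tested. Ifitm1 had no UMI in untreated B-like and T-like barcodes or in MC903 T-like ones, and 1.68 CPM in MC903 B-like ones.

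The first comparison asked how the genes differed between MC903 and untreated ears. A gene was counted as apart when it reached 20 CPM in the higher group and the levels differed by at least 1.5-fold. In BFP+ DCs, 3 of the 19 members reaching 20 CPM were higher in the MC903 capture, where 3.49% of all 4930 genes were, and 0 were lower, against 4.4% of all genes. Ifitm1 was 5.45-fold higher (log2 ratio 2.45, interval 1.82 to 3.15), Isg15 3.45-fold (1.79, 1.42 to 2.17) and Ifi35 2.02-fold (1.02, 0.74 to 1.31). In BFP− DCs, 2 of 20 members were higher, against 4.78% of 5019 genes, and 0 were lower, against 5.32%. These were again Ifitm1, at 6.69-fold (2.74, 2.46 to 3.04), and Isg15, at 2.04-fold (1.03, 0.91 to 1.15), while Ifi35 was 1.40-fold higher (0.48, 0.37 to 0.59). In both BFP+ and BFP− DCs, Ifitm1 passed 20 CPM only on the MC903 side. The limit thus fixed its direction, and its place in these counts is not read as support for a difference. Ifi35 encodes a partner of N-myc interactor in interferon-induced cytoplasmic complexes.

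Most members differed little between the captures. Their median log2 ratio was 0.16 in BFP+ and −0.08 in BFP− DCs, beside −0.04 and −0.03 over all genes that reached 20 CPM. In BFP+ DCs the next largest log2 ratios were 0.53 for Ifi27l2a, 0.43 for Ifitm3 (0.13 to 0.75), 0.41 for Zbp1 and, downward, −0.35 for Usp18 (−0.60 to −0.10). The Ifi27l2a ratio was −0.18 with HTODemux hashtag calls and the Ifitm3 ratio −0.14 with the mean of per-cell CPM. In BFP− DCs they were 0.38 for Samhd1 and 0.37 for Zbp1, and, downward, −0.39 for the nuclear protein Phf11b, −0.37 for Trim30a, −0.33 for Ifi27l2a, −0.29 for Tor3a, −0.25 for Ifih1 and −0.23 for Sp100. Ifi27l2a was at 0.24 there with HTODemux. Ifitm3 was at 0.04, and at −0.22 after thinning and −0.31 with per-cell means. Gbp2 was at 0.05 in BFP+ and 0.04 in BFP− DCs, and Bst2 at −0.05 and −0.18, so these abundant genes held their level. Zbp1 passed 20 CPM only on the MC903 side in both populations, so the limit fixed its direction. Irf7, the transcription factor that amplifies type I interferon production, was too low to read, at 4.95 and 4.60 CPM in untreated and MC903 BFP+ DCs and 6.81 and 9.34 CPM in BFP− DCs. Ifit3 had 0 UMIs in untreated BFP+ DCs and 58 in MC903 BFP+ ones, all in 11 cells. Its level was 3.93 CPM there and 0.973 and 1.05 CPM in untreated and MC903 BFP− DCs.

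**Figure D2:**
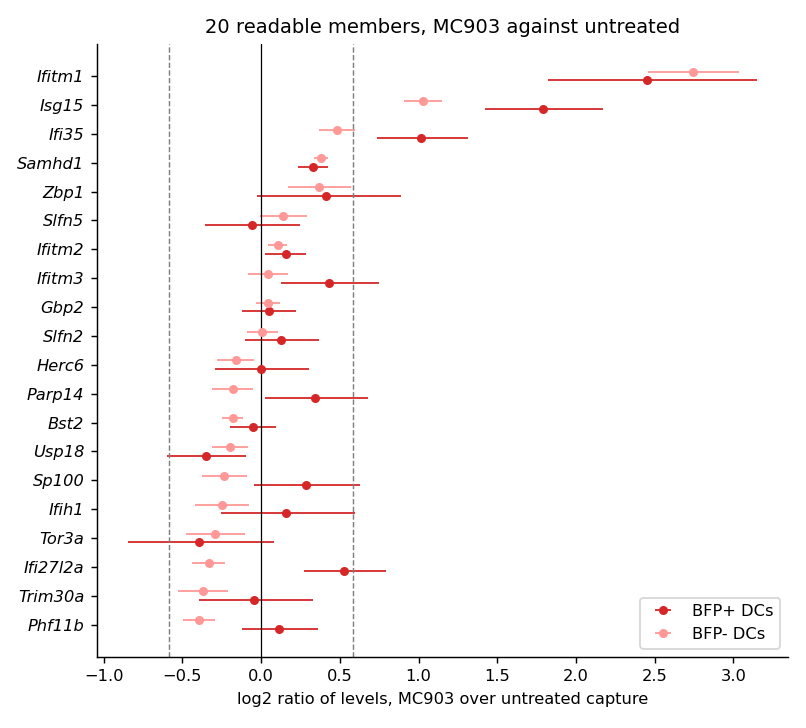
Log2 ratio of MC903 to untreated CPM for each of the 20 readable genes in BFP+ and BFP− DCs, with 95% counting intervals and dashed lines at 1.5-fold. Ifitm1 (2.45 and 2.74) and Isg15 (1.79 and 1.03) lie far to the right in both populations, and Ifi35 follows at 1.02 and 0.48. Ifitm1 passed 20 CPM only on the MC903 side.

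The second comparison set BFP+ against BFP− DCs of the same capture, asking whether DCs with an active Tnfsf4 locus carried another interferon signature. In the untreated capture, 2 of 18 members were lower in BFP+ DCs, against 4.59% of 5038 genes, and 0 were higher, against 3.18%. These were Isg15, at 24.4 against 48.2 CPM (log2 ratio −0.99, −1.38 to −0.61), and Ifi27l2a, at 52.1 against 81.6 CPM (−0.65, −0.91 to −0.39). The other members leaned the same way. In all, 17 of the 18 were below 0 and the median was −0.43, where the median over all genes was −0.01. Parp14 followed at −0.58, Ifih1 at −0.55, Phf11b at −0.54 and Herc6 at −0.52. Ifitm3 was at −0.43 (−0.75 to −0.13), Gbp2 at −0.17 and Bst2 at −0.07, and only Slfn5, of the Schlafen family, was above 0 at 0.18 (−0.13 to 0.48). Irf7 had a ratio of −0.46 (−1.42 to 0.38) and Ifit3 was at 0 UMIs in BFP+ DCs. This population was the smallest, with 400 cells, and its calls depend on the hashtag rule. Its median depth was 4889 UMIs, against 2625 in untreated BFP− DCs. The count of lower members was 4 or 5 with a stricter mitochondrial or gene limit, with 3 DC genes, after thinning and with per-cell means. With the calls of HTODemux the BFP+ population held 1541 DCs (median 2831 UMIs), 178 of them dominated by the BFP− hashtag, and the BFP− one 681 (median 8293 UMIs). With these calls 0 members were lower and Ifi27l2a turned to 0.70, Ifitm3 to 0.20 and Irf7 to 0.65.

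In the MC903 capture, which was sequenced to greater depth, 0 of 20 members were lower in BFP+ DCs, against 1.83% of 4800 genes, and 0 were higher, against 1.4%. The median was −0.06 beside −0.02 over all genes, and 14 of 20 were below 0. The largest downward log2 ratios were those of Tor3a at −0.53, Herc6 at −0.36, Usp18 at −0.30, Isg15 at −0.23 (−0.32 to −0.13), Ifitm1 at −0.20 and Slfn2 at −0.19. Tor3a passed 20 CPM only on the BFP− side, so the limit fixed its direction. Ifitm1 turned to 0.44 with HTODemux, 0.29 after thinning and 0.33 with per-cell means, and Isg15 to 0.02 with HTODemux. Upward the largest was Ifi27l2a at 0.21. Gbp2 was at −0.16, Ifitm3 at −0.05 and Bst2 at 0.06, and the last 2 changed sign in some settings. Of the genes too low to read, Irf7 was at 4.60 against 9.34 CPM (−1.02, −1.42 to −0.63) and Ifit3 at 3.93 against 1.05 CPM (1.90, 1.25 to 2.57). Both rested on few cells, which these intervals do not cover. For Irf7, 58 of 284 UMIs in BFP− DCs lay in 1 cell and 83.8% in 30 cells. For Ifit3, 22 of 58 UMIs in BFP+ DCs lay in 1 cell. The reporter populations also differed in makeup. DCs called cDC1-like were 4.25% of untreated BFP+ and 6.32% of untreated BFP− DCs, and 1.89% and 8.49% in the MC903 capture, while Langerhans-like DCs were 5.5% and 7.52%, and 0.8% and 7.90%. The part of this makeup in the BFP ratios was not tested.

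The third comparison set DC types against each other. Types were taken from marker genes, cDC1-like for conventional DCs that cross-present, cDC2-like for those that prime helper T cells, and Langerhans-like for DCs from the epidermis, and a DC with fewer than 2 genes of any type list stayed untyped. The untreated capture gave 288 cDC1-like, 1024 cDC2-like, 344 Langerhans-like and 3744 untyped DCs, and the MC903 capture 288, 1276, 257 and 2692. The gate itself fixed that list genes are high in their type, and in the untreated and MC903 captures Xcr1 was at 71.4 and 15.8 CPM in cDC1-like, Cd209a at 126 and 18.6 CPM in cDC2-like and Epcam at 179 and 118 CPM in Langerhans-like DCs. Irf8, a cDC1 factor outside the lists, was at 506 against 216 CPM in untreated cDC1-like and cDC2-like DCs and 600 against 305 in MC903 ones, but MC903 Langerhans-like DCs also reached 575. Xcr1 and Cd209a were lower in the MC903 capture, so the gates do not draw on the same share of cells in both. Tmem176b, a gene of the cDC2-like list, was at 918 to 1302 CPM in all types of both captures and so did little to part them.

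In the untreated capture, cDC2-like DCs carried more of the IFITM group. Ifitm3 was at 19.1 CPM in cDC1-like, 112 in cDC2-like and 15.0 in Langerhans-like DCs, and Ifitm2 was at 141 CPM in cDC1-like against 331 in cDC2-like DCs. Ifi27l2a was at 44.2, 119 and 39.9 CPM in that order of types. Of 21 members compared between cDC1-like and cDC2-like DCs, 5 were lower in cDC1-like, against 8.95% of 5198 genes, with log2 ratios of −2.55 for Ifitm3 (−3.09 to −2.06), −1.72 for Lgals3bp, −1.44 for Ifi27l2a, −1.23 for Ifitm2 and −0.76 for Slfn5. Higher in cDC1-like DCs were 2, against 6.85% of all genes, Ifi211 at 2.44 (21.3 against 3.92 CPM), of the DNA-sensing PYHIN family, and Zbp1 at 0.64. Lgals3bp and Ifi211 were too low to read in every population. Lgals3bp passed 20 CPM only on the cDC2-like side, and Ifi211 and Zbp1 only on the cDC1-like side, so the limit fixed the directions of these genes. Isg15 was at 39.8 against 50.5 CPM (−0.34, −0.74 to 0.04), Bst2 at −0.20, Gbp2 at 0.20 and Irf7, at 7.63 against 13.9 CPM, at −0.87. No Ifit3 UMI was found in cDC1-like DCs. The monocyte and macrophage marker list moved with these genes, at 130 CPM in cDC1-like, 1354 in cDC2-like and 170 in Langerhans-like DCs. With DCs holding at least 2 of its genes left out, an alternative added after the values were seen, the ratios were −1.49 for Ifitm3, −0.91 for Ifi27l2a, −0.53 for Lgals3bp, −1.07 for Ifitm2 and 2.89 for Ifi211, while Irf7 turned to 0.74 and Isg15 to 0.03. The part of these cells in the type differences beyond that was not tested.

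Several genes had another order of cDC1-like and cDC2-like DCs in the MC903 capture. Of 21 members, 7 were higher in cDC1-like DCs, against 9.12% of 4877 genes, and 1 was lower, against 8.45%. Ifi211 was at 42.9 against 5.36 CPM (log2 ratio 3.00), Ifitm1 at 177 against 39.4 CPM (2.17), Isg15 at 183 against 106 CPM (0.79, 0.65 to 0.92) and Gbp2 at 195 against 113 CPM (0.79). Tor3a stood at 1.04, Phf11b at 0.88 and Herc6 at 0.76, and the lower gene was Slfn5 at −0.59. Ifitm3 was now at 67.6 against 80.3 CPM (−0.25), Ifitm2 at −0.42, Ifi27l2a at −0.14 and Bst2 at 0.34, while Irf7 was at 7.19 against 16.4 CPM (−1.19) and Ifit3 had 2 UMIs against 36. The monocyte and macrophage list was at 51.8 CPM in cDC1-like and 435 CPM in cDC2-like DCs. Without DCs holding at least 2 of its genes, Ifitm3 stood at 0.28, Ifi27l2a at 0.54, Ifi211 at 3.31 and Ifitm1 at 2.11. Ifi211 had the largest upward ratio of the members compared in both captures, but reached 20 CPM only in cDC1-like DCs and never in a whole population. In the MC903 capture Tor3a also passed 20 CPM only on the cDC1-like side of this comparison. The limit thus fixed the direction of both genes, which are not read as support for a difference.

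Langerhans-like DCs were poor in the IFITM group in both captures. Of 22 members compared with cDC2-like DCs in the untreated capture, 6 were lower, against 8.71% of 5432 genes, namely Ifitm3 (−2.90), Lgals3bp (−1.87), Ifi27l2a (−1.58), Ifitm2 (−1.19), Slfn2 (−0.66) and Sp100 (−0.63). Higher were 4, against 12.1% of all genes, namely Xaf1 (1.04), Herc6 (0.94, at 88.4 against 45.9 CPM), Ddx58 (0.78), the sensor RIG-I, and Eif2ak2 (0.68). Xaf1, Ddx58 and Eif2ak2 were too low to read in every population and passed 20 CPM only on the Langerhans-like side. Lgals3bp, also too low to read, passed only on the cDC2-like side. The limit thus fixed the direction of these genes, which are not read as support for a difference. In the MC903 capture, 4 of 21 were lower, against 7.2% of 5066 genes, namely Ifitm3 (−2.51, at 14.1 against 80.3 CPM), Ifi27l2a (−1.44), Ifitm2 (−1.33) and Ifitm1 (−0.66). Higher were 3, against 9.99%, namely Herc6 (1.01), Eif2ak2 (0.65) and Tor3a (0.63). Eif2ak2 again passed 20 CPM only on the Langerhans-like side, as did Tor3a, so the limit fixed the direction of both. Isg15 was at −0.16 untreated and −0.35 in the MC903 capture, Gbp2 at −0.05 and 0.50, Bst2 at −0.21 and −0.13, and Irf7 at −2.59 and −3.72. Ifit3 had 1 and 5 UMIs in Langerhans-like DCs. Without DCs holding at least 2 monocyte and macrophage genes, Ifitm3 stood at −1.94 and −1.83.

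**Figure D3:**
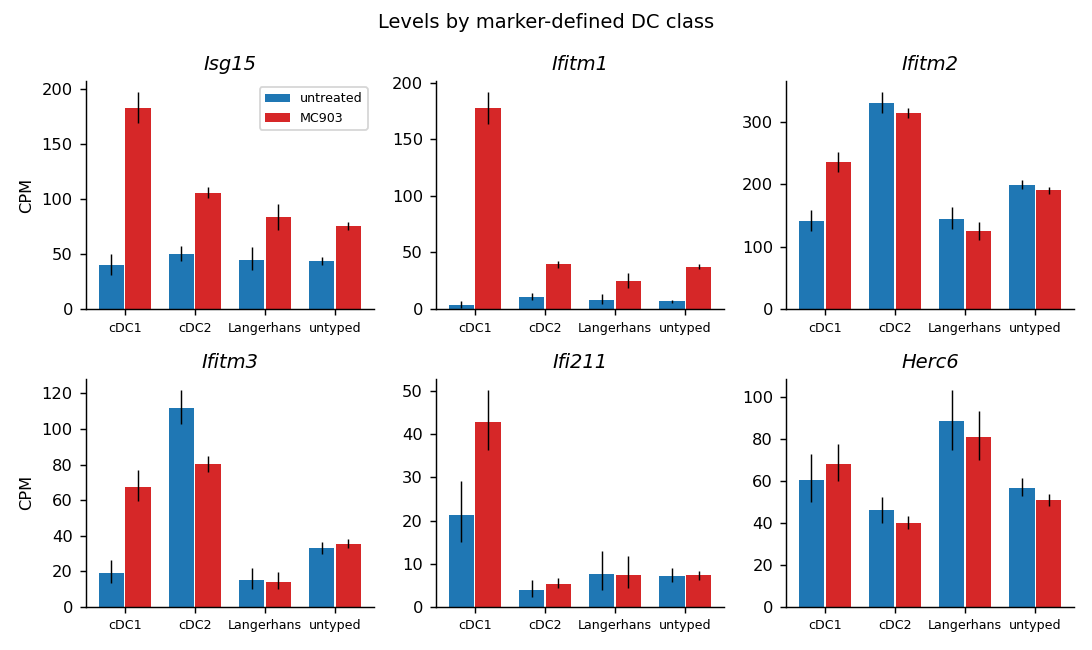
Levels (CPM, bars from 0) of 6 members in cDC1-like, cDC2-like, Langerhans-like and untyped DCs of the untreated and MC903 captures, with exact 95% Poisson intervals for counting error. Ifitm3 stands at 112 CPM in untreated cDC2-like DCs against 19.1 and 15.0 in cDC1-like and Langerhans-like ones, and Ifitm1 at 177 CPM in MC903 cDC1-like DCs.

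With all gated cells kept, Isg15 and Ifitm1 were higher in the MC903 capture in every type. The log2 ratio of Isg15 was 2.20 in cDC1-like (39.8 to 183 CPM), 1.07 in cDC2-like (50.5 to 106), 0.89 in Langerhans-like (45.1 to 83.5) and 0.78 in untyped DCs (44.0 to 75.4). Ifitm1 differed by 5.76 in cDC1-like DCs (3.27 against 177 CPM, 6 against 616 UMIs), 1.83 in cDC2-like, 1.62 in Langerhans-like and 2.47 in untyped ones. Ifi35 differed by 0.47, 0.87, 0.31 (−0.04 to 0.67) and 0.45 in the same order. The Ifitm1 value of cDC1-like DCs rested on few cells. Its 616 UMIs lay in 49 of 288 cells and 361 of them (58.6%) in 5 cells. Nearly all came from BFP− cDC1-like DCs, with 614 UMIs in 257 cells against 1 UMI in 26 BFP+ cells. The MC903 Langerhans-like values rested on few cells too. There 51 of 60 Ifitm1 UMIs (85%) and 109 of 201 Isg15 UMIs (54.2%) lay in 5 cells.

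The members were spread unevenly over cells. In the MC903 BFP+ population the 14 cells with most UMIs of a gene, the top 1% of cells, held 4.76% of the Samhd1 UMIs but 45.2% of those of Isg15, 64.6% of those of Ifitm1 and 85.7% of those of Ifit1. For Ifit1, 39 of its 161 UMIs (24.2%) were in a single cell. Such a share falls as a gene's count grows, so members of like count, picked for that, were set beside these. Ifi35, with 1252 UMIs against 1242 of Isg15, had 7.51% in the top 1%, and Parp14, with 649 against 644 of Ifitm1, had 16.3%. Isg15 and Ifitm1 were thus more concentrated than these 2 members in MC903 BFP+ DCs. In untreated BFP− DCs the top 1% held 32.6% of the 694 Isg15 UMIs against 15.2% of the 743 of Parp14, but 52.8% of the 108 Ifitm1 UMIs beside 41.5% of the 106 of Phf11d, so no such contrast is read for Ifitm1 there. In MC903 BFP− DCs the shares were 42.0% for Isg15 and 65.9% for Ifitm1. At an equal depth of 2000 UMIs per cell, Isg15 was detected in 3.07% of BFP+ (exact binomial interval 1.54 to 5.43) and 7.39% of BFP− DCs (6.49 to 8.39) of the untreated capture. The MC903 capture gave 7.49% of BFP+ (6.15 to 9.02) and 9.24% of BFP− DCs (8.22 to 10.3). Thinning left out 42, 705, 14 and 39 shallower cells in that order. The unthinned shares were 10.5%, 11.2%, 18.8% and 23.1%. MC903 B-like barcodes, at median 2985 UMIs, gave 0 of 167, where 3 cells would be 1.80%, and untreated ones 5%, so the untreated BFP+ share lay below that of B-like barcodes of its own capture and is not read as expression.

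The per-cell sum of all members showed the same tail. At 2000 UMIs per cell, the median DC had 3 member UMIs in each of the 4 populations, while the highest cell had 34 in the untreated and 83 in the MC903 capture. DCs with 12 or more member UMIs, a limit set after the values were seen, numbered 41 of 4390 untreated (0.934%, interval 0.671 to 1.26) and 113 of 4460 MC903 DCs (2.53%, 2.09 to 3.04). With 20 or more there were 7 (0.159%) and 45 (1.01%). This is a range of a continuous score and not a cell type, since 12 untreated and 16 MC903 cells stood at the limit and 23 and 31 at 1 UMI below it. In the untreated capture, 1 of 358 BFP+ DCs (0.279%) and 33 of 3016 BFP− DCs (1.09%) were in the tail. The MC903 capture had 31 of 1361 BFP+ (2.28%) and 79 of 2988 BFP− DCs (2.64%). By type, the shares were 0.752% of untreated cDC1-like, 2.64% of cDC2-like and 0.329% of Langerhans-like DCs, and 7.32%, 3.53% and 1.17% in the MC903 capture.

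**Figure D4:**
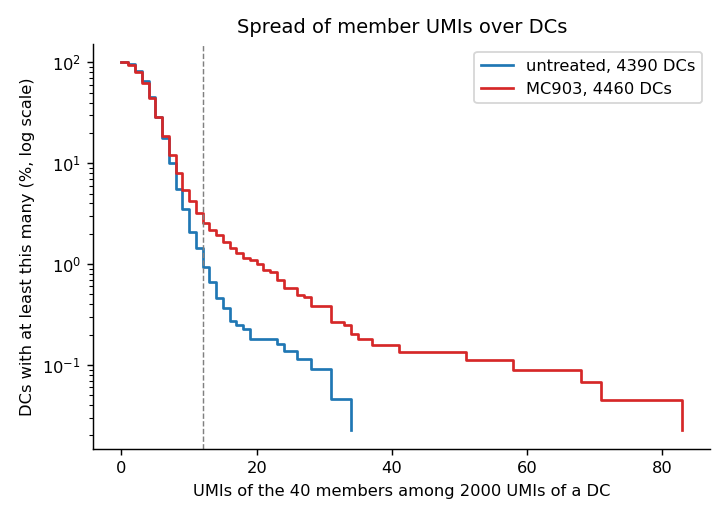
Percent of DCs (log axis) with at least a given number of member UMIs after thinning to 2000 UMIs per cell, for each capture, with a dashed line at 12. The curves lie together at low sums and part toward the tail, with 0.934% of untreated and 2.53% of MC903 DCs at 12 or more.

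The tail cells carried a large part of several members in the MC903 capture. They held 78.9% of the thinned UMIs of Ifit3, 77.4% of Irf7, 64.9% of Ifitm1, 47.0% of Ifitm3 and 45.3% of Isg15, but 4.98% of Gbp2 and 4.18% of Samhd1. These shares, and what is left when the cells are taken out, follow partly from how the cells were chosen, since members such as Isg15 count toward the sum. Without the tail cells, the MC903 to untreated log2 ratio was 0.86 for Isg15, 1.23 for Ifitm1 and 0.93 for Ifi35 in BFP+ DCs. In BFP− DCs it was 0.36 for Isg15, below 1.5-fold, 1.70 for Ifitm1 and 0.45 for Ifi35. In MC903 cDC1-like DCs, Ifitm1 went from 177 to 37.2 CPM and Isg15 from 183 to 103 CPM. These values describe where the UMIs lie and are no test of the treatment ratio.

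**Figure D5:**
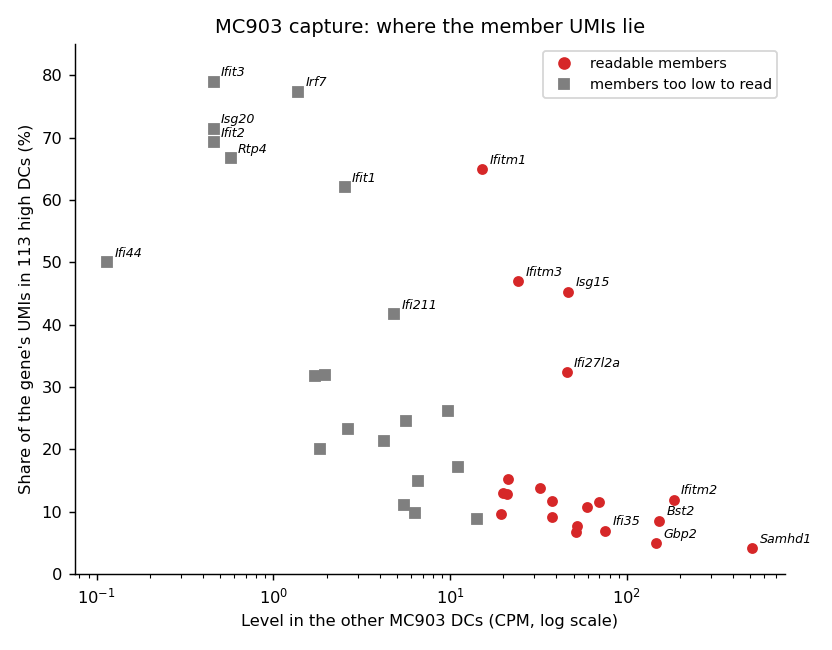
For each member in the MC903 capture, the share of its thinned UMIs (percent) found in the 113 DCs with 12 or more member UMIs, against its level in the other MC903 DCs (CPM, log axis). Ifit3 (78.9%), Irf7 (77.4%) and Ifitm1 (64.9%) lie at the top, and Samhd1 (4.18%) and Gbp2 (4.98%) at the bottom right.

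The genes of the tail that did not choose it can be read separately. When DCs were split by their readable members alone, at 10 or more UMIs, the members too low to read summed to 657 CPM above the limit and 117 below it in the untreated capture (log2 ratio 2.48), and to 908 and 84.6 CPM in the MC903 capture (3.42). Among genes of the pathway lists that are not members, 12 of 35 in the untreated and 21 of 33 in the MC903 capture had an interval above 0, where 5.08% and 8.9% of all genes with as many UMIs did. An interval below 0 was found for 1 and 2 of them, against 2.01% and 4.85% of all genes. In the MC903 capture Ms4a4c was at 190 against 3.22 CPM in the tail and the rest, the 2′-5′-oligoadenylate synthetase relative Oasl2 at 88.5 against 1.61, the surface protein Ly6e at 350 against 13.2 and the chemokine Cxcl9 at 274 against 7.02. Their tail UMIs lay in 25, 16, 39 and 11 of the 113 tail cells in that order. Epsti1 was lower at 1566 against 2671 and Gbp8 at 66.4 against 136. The DC list summed to 6805 CPM in the tail and 10006 in the rest of the untreated capture, and to 11743 and 11246 in the MC903 capture. Its migration gene Ccr7 was at 1049 against 2529 CPM and 1761 against 2816 CPM, and Fscn1 at 1341 against 1956 and 2412 against 2367. Median depth was 3224 against 2934 UMIs in the untreated and 11827 against 9739 in the MC903 capture.

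Monocyte and macrophage markers were also higher in the tail. Their list summed to 3915 against 443 CPM in the untreated and 2743 against 155 CPM in the MC903 capture. At least 2 of its genes were found in 16 of 41 untreated tail DCs (39.0%) against 321 of 4349 others (7.38%), and in 20 of 113 MC903 tail DCs (17.7%) against 168 of 4347 (3.86%). In the MC903 tail, Lyz2 was at 1726 against 119 CPM with its UMIs in 18 of 113 cells. The B cell list was at 44.2 against 27.6 CPM there, the T cell list at 13.3 against 15.0 and the plasmacytoid DC list at 195 against 169, and at 110 against 106, 85.4 against 76.6 and 207 against 188 CPM in the untreated capture. Among DCs with fewer than 2 monocyte and macrophage genes, 25 of 4053 untreated (0.617%) and 93 of 4272 MC903 DCs (2.18%) were in the tail, so most MC903 tail cells had fewer than 2 of those genes. Over the same DCs the MC903 to untreated log2 ratio was 1.77 and 1.12 for Isg15 in BFP+ and BFP− DCs, and 2.20 and 2.80 for Ifitm1, beside 1.79, 1.03, 2.45 and 2.74 with all DCs. The part of monocytes and macrophages in the rest of the tail was not tested.

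Genes upstream of the members were followed by lists of the same pathway. Of 10 interferon genes, 0 reached 20 CPM in any population. Ifnb1 had 2 UMIs in MC903 BFP+ DCs, and Ifng had 7 at most in a population. Of 6 receptor genes, 5 were readable and 0 differed by 1.5-fold in either treatment or reporter comparison, Ifnlr1 being too low. Of all genes, 1.4% to 5.32% were apart in a given direction of these comparisons, so 0 of 5 lies near the background. Of the signal transducers, 1 of 8 was higher in MC903 BFP+ DCs, against 3.49% of all genes. This was Stat2 (26.3 against 14.5 CPM), which passed 20 CPM only on the MC903 side, so the limit fixed its direction. In MC903 BFP− DCs 2 of 8 were higher, against 4.78% of all genes, among them the feedback inhibitor Socs1 (92.7 against 60.9 CPM). With so few genes in either list, the receptors and transducers are not read as a contrast. In the list of interferon regulatory factors and sensors, Irf8 was lower in BFP+ than BFP− DCs in both captures, at 195 against 311 and 225 against 382 CPM.

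Another 41 interferon-stimulated genes outside the list gave a mixed picture. Between BFP+ and BFP− DCs, 5 of 18 were lower and 1 was higher in the untreated capture, where 4.59% and 3.18% of all genes were. In the MC903 capture 6 of 18 were lower and 0 higher, against 1.83% and 1.4% of all genes. Epsti1, an abundant interferon-responsive gene, was at 1793 against 2909 CPM in the latter, and the chemokine Cxcl10 was the higher gene in the former, at 60.9 against 34.5 CPM. Between MC903 and untreated DCs, 1 of 17 was higher and 2 were lower in BFP+ DCs, against 3.49% and 4.4% of all genes. In BFP− DCs 1 of 18 was higher and 2 were lower, against 4.78% and 5.32%, so these counts lie near the background. Ly6e was lower in both by log2 ratios of −1.47 and −1.60. Thus Ly6e stood opposite to Isg15 between the captures. Between cDC1-like and cDC2-like DCs of the MC903 capture, 6 of 20 were higher and 1 lower, against 9.12% and 8.45% of all genes. Among the higher was Oasl1, at 25.6 CPM in cDC1-like against 2.12 in cDC2-like DCs. It passed 20 CPM only on the cDC1-like side, so the limit fixed its direction.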

How the data were processed

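The deposited files hold UMI counts per gene and hashtag and per barcode for 2 captures, which the authors made with Cell Ranger (version 3.1.0, per the file headers). The genome is GRCm38 per the submitters' processing notes. The captures shared 23 barcodes, 21 of them kept. Kept barcodes had 500 or more genes and no more than 10% mitochondrial UMIs. DCs were gated by marker lists, and types needed at least 2 list genes and more than either other list gave. A population was the hashtag with at least 80% of at least 10 hashtag counts. No doublet caller was run. DCs with mixed hashtags were left out of the populations, and barcodes with 2 or more genes of a lymphocyte list were left out of the DCs. Counts were summed per group and scaled to 1000000. A ratio's interval is the exact 95% interval for 2 Poisson counts, and a share's is the exact Clopper-Pearson interval. UMIs of amplified libraries and cells of 1 pool are not independent samples, so intervals cover counting error only. For shares, cells were thinned to 2000 UMIs. Scripts were tested on simulated data. Isg15, Ifit3, Irf7, Ifitm3, Bst2 and Gbp2 were named in every comparison, with up to 6 readable members in each direction by size, and listed pathway genes by size. The alternatives were HTODemux calls, a 5% mitochondrial limit, 1000 genes per barcode, 3 DC or 3 type genes, lymphocyte genes allowed, thinning, centring on the median gene, a mean of per-cell CPM and a 50 CPM minimum. Leaving out DCs with monocyte genes, or with 12 or more member UMIs, was added after seeing the data. The members, lists and rules were chosen with earlier results of these data known. Some pathway results are not reported here. Promoters of 7 members were not in the RefSeq table used. Tools were Python 3.11.15, NumPy 2.4.6, SciPy 1.17.1, pandas 2.3.3, Matplotlib 3.10.9, R 4.3.3 and Seurat 5.3.0.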

Additional observations from a re-analysis of the deposited data

Results flagged for a closer look

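For 3 members every population of a contrast moved one way in one setting and the opposite way in the other, and none of these differences was tested, each side being a single pool. Ifit1 had a BFP+ to BFP− log2 ratio of −1.10 in the untreated capture and 0.90 in the MC903 capture, and Ifi27l2a one of −0.65 and 0.21. Between MC903 and untreated DCs, Ifit1 was at 1.38 in BFP+ and −0.62 in BFP− DCs, Ifi27l2a at 0.53 and −0.33, and Parp14 at 0.34 and −0.18. Ifit1 was too low to read in every population, and 39 of its 161 UMIs in MC903 BFP+ DCs were in 1 cell.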

How the results depend on the processing

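Counts of members at least 1.5-fold apart moved with the settings as follows. Between BFP+ and BFP− DCs of the untreated capture, the 2 lower members became 0 with HTODemux (and the 0 higher became 1), 5 with at most 5% mitochondrial UMIs, 4 with at least 1000 genes, 4 with at least 3 DC genes, 5 after thinning, 4 with the mean of per-cell CPM, 1 with a 50 CPM minimum and 1 without DCs of 12 or more member UMIs. In the MC903 capture, the 0 lower became 1 after thinning and 1 with per-cell means. Between MC903 and untreated BFP+ DCs, the 3 higher became 5 with at least 1000 genes, 5 with at least 3 DC genes and 6 without DCs holding monocyte genes, and the 0 lower became 1 after thinning and 1 with per-cell means. In BFP− DCs, the 2 higher became 1 without DCs of 12 or more member UMIs, and the 0 lower became 1 with per-cell means. Between cDC1-like and cDC2-like DCs of the untreated capture, the 2 higher became 1 with at least 3 DC genes, with lymphocyte genes allowed, with per-cell means and without DCs holding monocyte genes, 0 with a 50 CPM minimum and 4 with at least 3 type genes, and the 5 lower became 3 with a 50 CPM minimum and 8 with at least 3 type genes. In the MC903 capture, the 1 lower became 0 with at least 1000 genes, at least 3 DC genes, centring and without DCs holding monocyte genes, and 5 with at least 3 type genes. Between Langerhans-like and cDC2-like DCs, the 4 higher of the untreated capture became 1 with lymphocyte genes allowed, 2 with per-cell means, 1 with a 50 CPM minimum and 9 with at least 3 type genes. The 3 higher of the MC903 capture became 1 with at most 5% mitochondrial UMIs, 1 with centring and 1 with a 50 CPM minimum, and its 4 lower became 10 with at least 3 type genes. The ratio of Ifi27l2a between BFP+ and BFP− untreated DCs reversed to 0.70 with HTODemux, and that of Tor3a between Langerhans-like and cDC2-like MC903 DCs to −0.37 with at least 3 type genes, which left 80 against 167 cells. Other counts stayed within 1.5 times. The cause was not tested. Depth limits most the untreated BFP+ population, where 3 counts are 1.14 CPM. No paired analysis was possible because each population is a single pool and no test was run.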
